A study of Mus musculus with 8 samples.

Results

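The interferon-inducible genes of murine articular chondrocytes, with the interferon regulatory factors (IRFs), Stat2 and the interferon receptor chains, were compared between cells treated with IL-1β and cells treated with vehicle. Of the 54658 gene symbols in the table of read counts, 43 made up this set. They were taken by symbol from a list of names that was drawn up with earlier results of these data known, and all 43 were present. The cells were primary articular chondrocytes dissociated from the femoral heads of wild-type mice aged 3 weeks, grown in medium with serum and given 1 ng/mL of IL-1β or vehicle for 24 h. There were 4 samples per treatment, measured by RNA-Seq of total RNA. Neither the labels nor the methods gave the strain, and they did not say whether the 4 samples of a group came from separate mice or cultures, so the p-values measure only the spread between these samples.

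Interferons act through paired receptor chains on the cell surface. Type I interferons bind Ifnar1 with Ifnar2, and interferon gamma binds Ifngr1 with Ifngr2. The receptors activate Janus kinases, which phosphorylate STAT proteins. Complexes that hold Stat2 and Irf9 then bind interferon-stimulated response elements, and STAT pairs bind gamma-activated sites (GAS), which switches on antiviral effectors and the guanylate-binding proteins (GBPs). Some of these promoters also carry κB motifs, the letters read by NF-κB, the factor that IL-1β is known to activate.

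The promoter sequences of the set are shown first, since they carry the motifs by which these genes are usually recognised. RefSeq promoter windows, from 250 bases before to 50 after the transcription start (GRCm38.p6), were found for 38 of the 43 genes. A response element was searched as TTTCNNTTTC, a GAS as TTCNNNGAA and a κB motif as GGGANNTTCC, all on both strands. The response element was present in the windows of 20 of the 38 genes (52.6%), against 3.99% of the 27025 genes with such a window. A GAS was present in 16 of them (42.1%), against 9.55% of all genes, and a κB motif in 6 (15.8%), against 1.63%. A match is a run of letters, not evidence of binding.

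The response elements before the RefSeq start of 10 genes are set beside each other because these genes, which share the motif, differed in level and in response. Each line gives 20 bases read so that the element begins with its first T, with the element in capitals. For Gbp2 this stretch is at the first bases of the gene as GENCODE draws it, and for Irgm1 and Irgm2 it lies inside that gene. In each of these genes RefSeq puts the start further downstream.
Gbp2: tttagTTTCACTTTCactgt
Gbp7: tgcagTTTCAGTTTCagttc
Bst2: cagccTTTCAGTTTCatttt
Ifitm2: agcaaTTTCCTTTTCctgtt
Irgm1: atcagTTTCGGTTTCtattt
Irgm2: acagcTTTCAGTTTCagttc
Isg15: gctatTTTCTGTTTCggttt
Ifit1: ctcagTTTCAGTTTCtcact
Rsad2: ccaacTTTCATTTTCagaaa
Oas1a: tagatTTTCAGTTTCcattt
The first 4 are genes that rose with IL-1β, Irgm1 and Irgm2 are genes that made no call, and the last 4 had too few reads to be tested. Every GBP or immunity-related GTPase with a window had the element (7 of 7), as did 9 of 17 antiviral effectors, 2 of 8 IRFs and STATs and 0 of 4 receptor chains. It was in 8 of 12 windows of genes below the filter on low counts, in 12 of 26 of genes that passed it and in 7 of 13 of genes that rose.

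Longer stretches are given for a GBP that rose (Gbp7), for an antiviral gene near the limit of detection whose promoter held 3 overlapping elements (Isg15) and for a receptor chain that rose (Ifnar2). Each is the 250 bases before the RefSeq start on the strand of the gene, with matches to any of the 3 motifs in capitals, at chr3:142530086-142530335 (plus strand), chr4:156200819-156201068 (minus strand) and chr16:91372533-91372782 (plus strand).
Gbp7: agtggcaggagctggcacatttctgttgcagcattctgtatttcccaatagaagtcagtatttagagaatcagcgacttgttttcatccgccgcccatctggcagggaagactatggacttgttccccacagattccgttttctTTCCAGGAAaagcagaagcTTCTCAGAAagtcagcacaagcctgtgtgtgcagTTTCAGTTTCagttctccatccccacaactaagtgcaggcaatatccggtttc
Isg15: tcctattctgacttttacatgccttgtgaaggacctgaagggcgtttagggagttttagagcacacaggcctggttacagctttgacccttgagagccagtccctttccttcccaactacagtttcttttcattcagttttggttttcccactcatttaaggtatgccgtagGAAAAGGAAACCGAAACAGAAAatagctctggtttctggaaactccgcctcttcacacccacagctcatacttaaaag
Ifnar2: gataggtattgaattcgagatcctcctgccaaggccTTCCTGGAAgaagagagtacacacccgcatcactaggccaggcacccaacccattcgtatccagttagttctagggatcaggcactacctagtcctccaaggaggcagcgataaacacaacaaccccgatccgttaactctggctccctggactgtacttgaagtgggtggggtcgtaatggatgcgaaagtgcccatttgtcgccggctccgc
In Gbp7, 2 GAS matches preceded the response element at bases -53 to -44, counted with the first transcribed base as 0. In Isg15 the 3 elements spanned bases -78 to -57. Ifnar2 held a GAS at bases -214 to -206 and no response element. Outside these stretches, Gbp2 held a κB match at bases 7 to 16, inside the transcript, and Ifngr2 held one at bases -75 to -66. The other κB matches were in Ifitm3 (-116 to -107), Gbp5 (-77 to -68), Ifit2 (-247 to -238) and Isg20 (-109 to -100). Of the 6 genes with a κB match, Gbp2, Ifngr2 and Ifitm3 rose and Isg20 fell. Ifit2 made no call and Gbp5 was not tested.

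**Figure D1:**
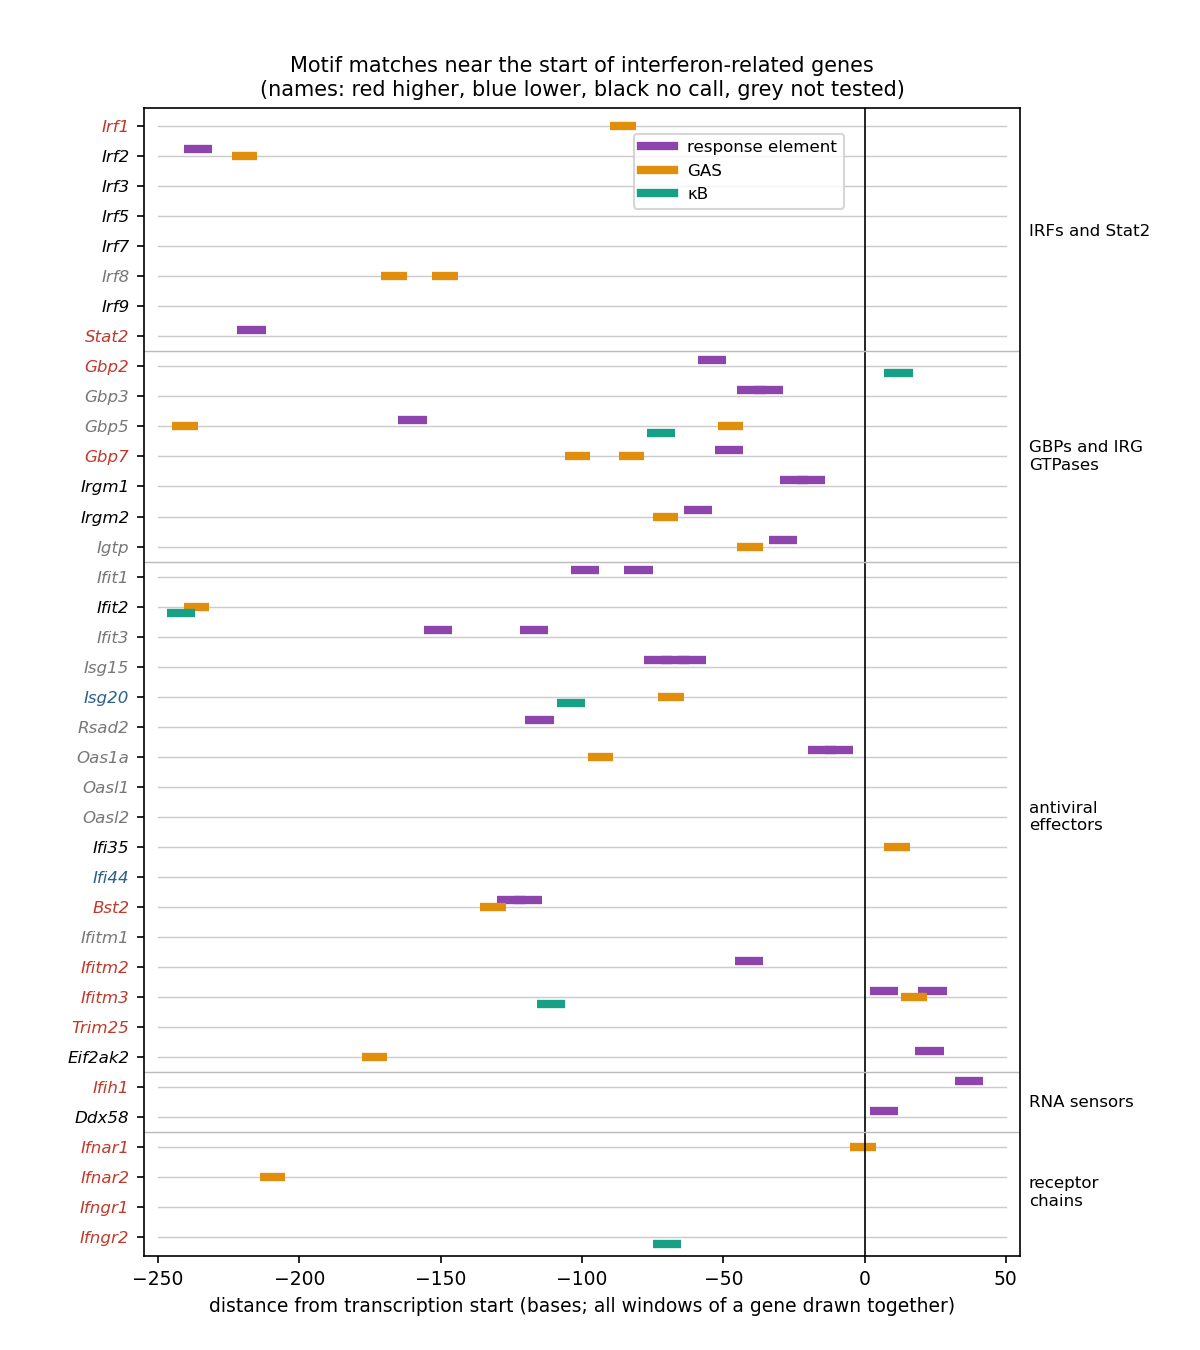
Motif matches in the promoter windows of the 38 genes with a RefSeq window, as distance in bases from the transcription start (vertical line), with genes grouped by role. Purple marks response elements, orange GAS and green κB motifs, and all 7 GBPs and immunity-related GTPases carry a purple mark while the 4 receptor chains carry none.

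The libraries held between 10992355 and 17456063 reads. A limit of 3 reads, which a count of 0 allows, was 0.173 to 0.27 CPM (the reads of a gene scaled to the size of its library) and covers counting error only. All 9 chondrocyte markers passed the filter, at a summed level of 16120 to 16740 CPM in vehicle samples, and all 9 were lower with IL-1β, at 4181 to 4593 CPM in sum. Of 12 leukocyte markers, only Cd68 passed the filter, and Cd52 and C1qb were at 0 reads in every sample. Ptprc had 8 reads in the IL-1β samples together and 7 in the vehicle samples. In the same order, Fcer1g had 20 and 23 reads, Coro1a 25 and 28, and Tyrobp 4 and 7. Itgam had 5 and 0 reads, Adgre1 5 and 2, and C1qa 0 and 6. The summed leukocyte list was nevertheless 15.2 to 19.5 CPM with IL-1β against 11.8 to 13.2 CPM with vehicle, and Cd68 rose (log2 fold change 0.67). Below the filter, Csf1r had 52 reads with IL-1β and 45 with vehicle, and Laptm5 went the other way, with 24 reads against 74 and no overlap in CPM (adjusted p = 0.0005978 in an edgeR fit without the filter). None of 6 lymphocyte and 5 endothelial markers passed the filter. Of 5 fibroblast and synovial lining markers, 4 passed it, and the summed list was higher with IL-1β, at 2116 to 2239 CPM against 997 to 1049 CPM. Most of that sum was Prg4, the lubricin of the joint surface, which rose from 856 to 2011 CPM on average (log2 fold change 1.23). Pdgfra rose from 27.6 to 41.2 CPM (0.58), while Col3a1 fell from 50.3 to 39.8 CPM (-0.34). Col1a1 made no call, at 83.9 CPM with IL-1β against 90.1 CPM with vehicle, and Thy1 was below the filter. The part of these marker changes in the results below was not tested. In such bulk samples, fewer cells of a type and less RNA per cell cannot be told apart.

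A gene was tested if it exceeded 1 CPM in at least 4 samples. By this rule 26 of the 43 genes were tested and 17 were too low. With edgeR's quasi-likelihood test, adjusted for all 14404 genes tested by Benjamini-Hochberg, 13 of the 26 rose with IL-1β and 2 fell at an adjusted p under 0.05, and 11 made no call. Over all genes tested, 20.4% rose and 19.8% fell. A change of more than 2-fold, the threshold for a differentially expressed gene (DEG) here, was passed by 3 genes upward (Gbp2, Gbp7 and Ifnar2), against 2.86% of all genes tested, and by 1 gene downward (Ifi44), against 2.35%. The samples of the 2 groups did not overlap for 15 of the 26 genes, against 36.8% of all genes tested. The median log2 fold change of the 26 genes was 0.23, and that of all genes tested was -0.0012.

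**Figure D2:**
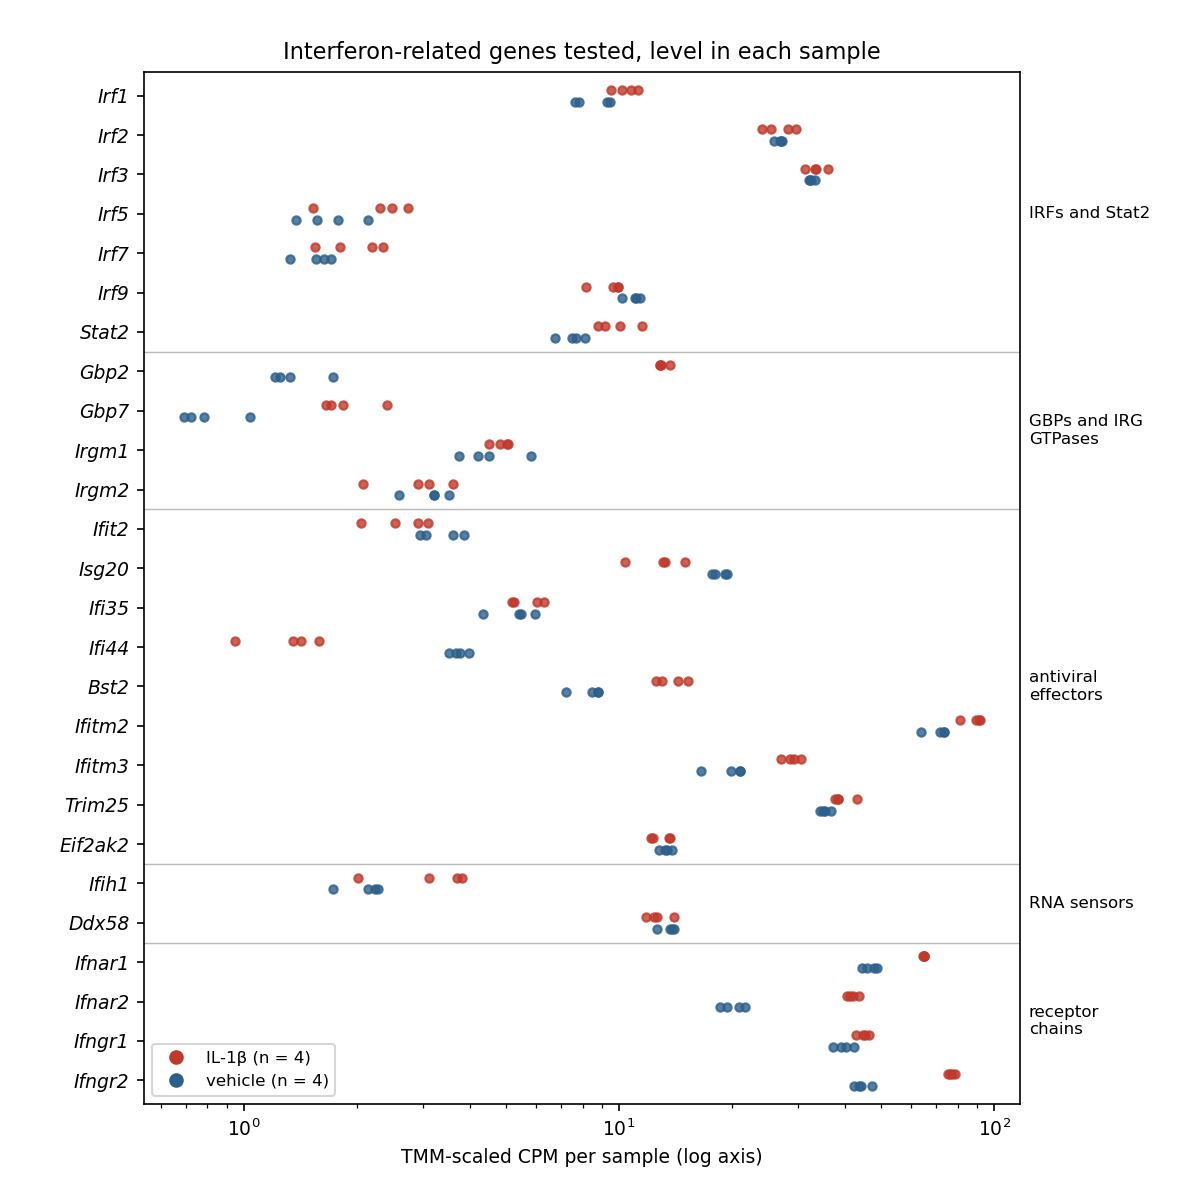
Level of each of the 26 tested genes in every sample, in CPM scaled by TMM on a log axis, grouped by role, with 4 IL-1β samples in red and 4 vehicle samples in blue. Gbp2 shows the widest gap, from 1.21 to 1.73 CPM with vehicle to 12.8 to 13.7 CPM with IL-1β, while most IRFs overlap between the groups.

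**Figure D3:**
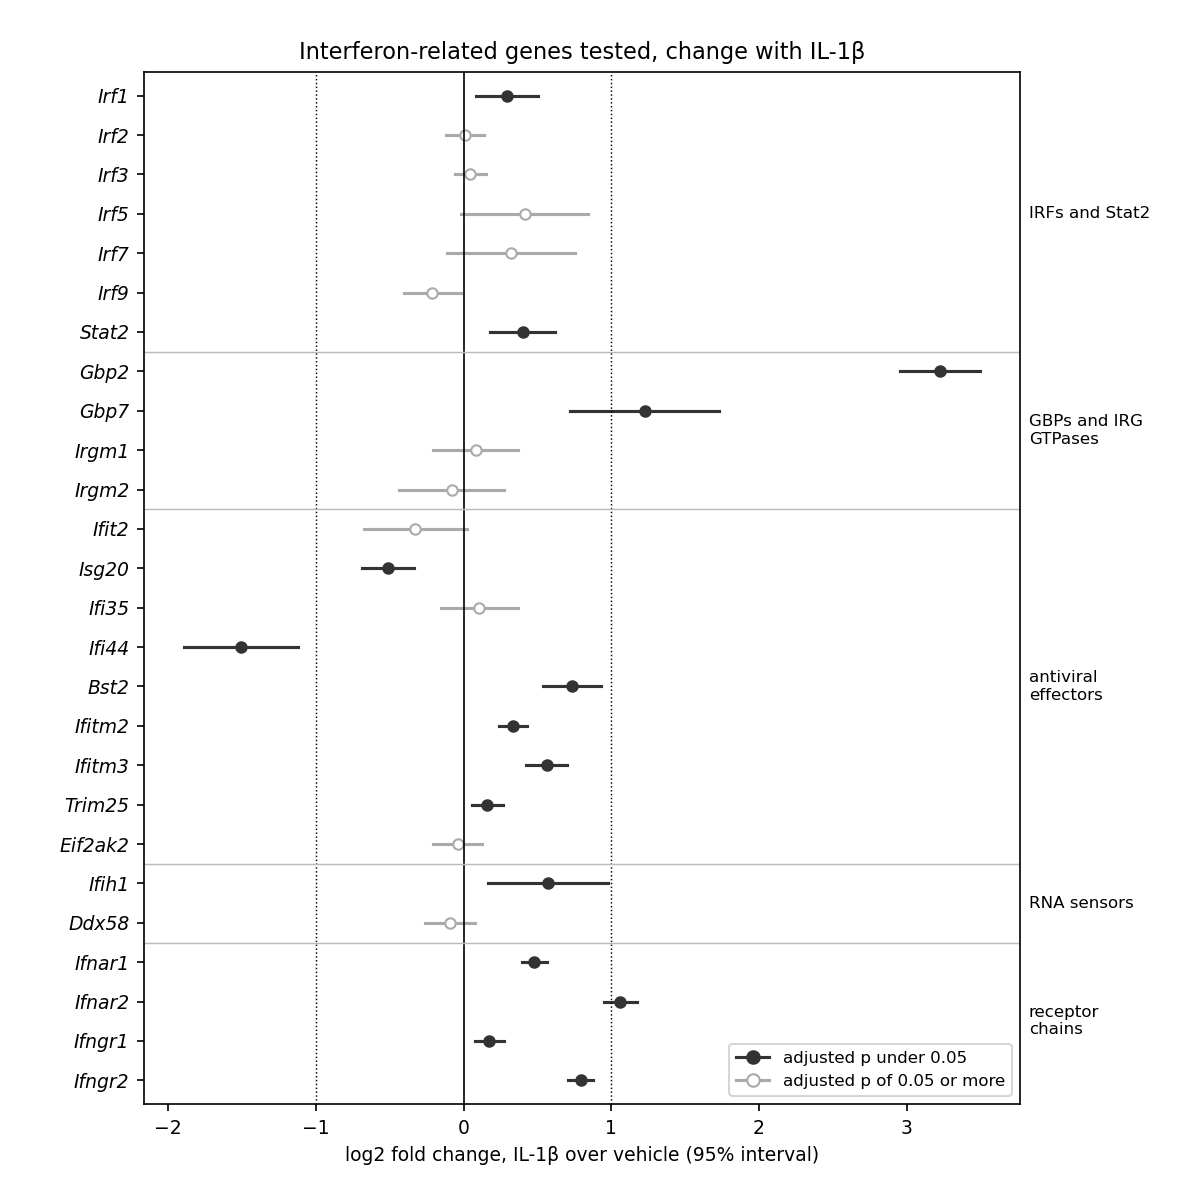
Log2 fold change of IL-1β over vehicle for each of the 26 tested genes, with its 95% interval from the edgeR fit and dotted lines at changes of 2-fold. Filled points are the 15 genes with an adjusted p under 0.05, and the 4 receptor chains are all above 0.

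All 4 interferon receptor chains rose with IL-1β, against 20.4% of all genes tested. Ifnar2, the chain with high affinity for type I interferons, was at 41.2, 40.5, 42.0 and 43.6 CPM in the 4 IL-1β samples and at 18.6, 19.4, 21.7 and 20.8 CPM in the 4 vehicle samples. Every IL-1β sample was above every vehicle sample by a wide gap. Its log2 fold change was 1.06 with an SE of 0.0554 (95% interval 0.95 to 1.17, edgeR adjusted p = 1.438e-15). The exact two-sided permutation test over the 8 samples gave p = 0.0286 here and for each of the other genes whose groups did not overlap, which is the smallest p that 4 against 4 samples allow. Of its exon bases, 9.5% overlap Gm21970, a gene model on the same strand that did not pass the filter.

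Ifngr2, the signalling chain of the interferon gamma receptor, was at 76.1, 75.1, 78.5 and 77.2 CPM with IL-1β and at 44.0, 47.1, 42.4 and 43.6 CPM with vehicle. Its log2 fold change was 0.79 (SE 0.0414, edgeR adjusted p = 1.458e-15). Ifnar1, the other type I chain, was at 64.6, 65.0, 65.2 and 64.8 CPM with IL-1β and at 45.8, 44.4, 47.9 and 48.6 CPM with vehicle. It rose by less, with a log2 fold change of 0.48 (SE 0.0409, edgeR adjusted p = 8.665e-11). The smallest rise was that of Ifngr1, the ligand-binding chain for interferon gamma, at 44.8 ± 1.46 CPM against 39.7 ± 2.19 CPM (SD, n = 4; log2 fold change 0.17, edgeR adjusted p = 0.003779). Groups did not overlap for any of the 4 chains, nor for 36.8% of all genes tested. Each chain was called higher with DESeq2, with the other scalings and filters, with the replicate block, with 1 factor of unwanted variation and with any 1 library left out, and none was called when tested against a change of 2-fold.

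The genes of Ifnar2, Ifnar1 and Ifngr2 lie together on mouse chromosome 16, between positions 91372783 and 91565623 of GRCm38, and that of Ifngr1 lies on chromosome 10. The stretch on chromosome 16 holds 5 protein-coding gene models, and 4 of them were tested. The untested model is Gm21970, whose span also overlaps that of Il10rb. Il10rb is the remaining tested gene, the chain shared by the receptors for IL-10 and type III interferons, and it is not among the 43 genes. It rose from 4.43 ± 0.728 to 11 ± 0.449 CPM (SD, n = 4; log2 fold change 1.32, edgeR adjusted p = 1.197e-10). All 4 tested genes of the stretch thus rose, against 20.4% of all genes tested, and the stretch was looked at after these values were seen.

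Among the GBPs and immunity-related GTPases, 8 genes in all, 4 were tested and 2 of them rose, against 20.4% of all genes tested. Gbp2, an interferon-inducible GTPase that coats pathogens and their vacuoles, showed the largest change of the 26 genes. Its levels were 12.9, 12.9, 13.7 and 12.8 CPM with IL-1β and 1.33, 1.73, 1.21 and 1.25 CPM with vehicle. In reads this was 143 to 230 per IL-1β library and 17 to 30 per vehicle library. The groups were far apart, and the spread within each was small beside the gap, a 9.47-fold difference of means. The log2 fold change was 3.23 (SE 0.133, 95% interval 2.95 to 3.50, edgeR adjusted p = 4.907e-18). With vehicle, 9.91% of the genes tested lay below Gbp2 in CPM per kilobase of exon (0.549), and with IL-1β its level was 5.2 CPM per kilobase.

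Gbp7, a related GTPase of the same gene cluster, was at 1.71, 1.66, 1.84 and 2.41 CPM with IL-1β and at 0.692, 1.04, 0.784 and 0.723 CPM with vehicle. The groups did not overlap, although the counts were low, with 19 to 34 reads per IL-1β library and 11 to 18 per vehicle library. Its log2 fold change was 1.23 (SE 0.245, 95% interval 0.72 to 1.73, edgeR adjusted p = 0.0001609). Gbp7 passed the filter through its IL-1β samples, so that a difference was favoured by its inclusion. Of its exon bases, 11.3% overlap Gm43802 on the same strand. When the edgeR test was run against a change of 2-fold rather than 0, Gbp2 was the only gene still called higher, since the intervals of Gbp7 and Ifnar2 reach below that size.

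Irgm1 and Irgm2, GTPases that regulate vacuole membranes and autophagy, made no call. Irgm1 was at 4.85 ± 0.254 CPM in treated samples against 4.57 ± 0.897 CPM (SD, n = 4), with a log2 fold change of 0.08 (95% interval -0.21 to 0.37). Irgm2 was at 2.93 ± 0.640 and 3.14 ± 0.389 CPM (SD, n = 4), a log2 fold change of -0.08 (95% interval -0.43 to 0.27). These intervals do not reach the size of the change in Gbp2 or Gbp7.

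The other 4 genes of this group were below the filter. Gbp5, a GTPase that promotes inflammasome assembly, had 4, 2, 6 and 3 reads in the IL-1β libraries and 2, 1, 0 and 0 in the vehicle libraries. In CPM these groups did not overlap, and the ratio of the summed reads, scaled by library size, was 5.71 with a 95% interval for counting error alone of 1.61 to 30.8. Gbp3 had 3 reads with IL-1β and 7 with vehicle in sum, and Igtp, whose exons overlap Irgm2 over 8.0% of their bases, had 31 and 38. Iigp1 had no read in any library, but its length in the table (3121 bases) differs from its exon length in GENCODE vM21 (5823 bases), so the counted gene model is uncertain. Fitted without the filter, Gbp5 was called higher (edgeR adjusted p = 0.03894), a value that rests on 15 reads against 3.

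Gbp5, Gbp7, Gbp3, Gbp2b and Gbp2 are the 5 protein-coding genes between positions 142493978 and 142638008 of chromosome 3, in this order and on 1 strand, and only Gbp7 and Gbp2 passed the filter. Outside the 43 genes, Gbp6 was noticed after its values were seen. It was also below the filter, with 9, 23, 15 and 19 reads in the IL-1β libraries and 1, 2, 4 and 2 in the vehicle libraries, and a fit without the filter gave a log2 fold change of 2.99 (edgeR adjusted p = 6.575e-10).

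Of the IRFs and Stat2, 8 transcription factors, 7 were tested and 2 rose, none fell and none passed the 2-fold threshold, against 20.4% of all genes tested that rose and 19.8% that fell. The median log2 fold change was 0.29, with a range of -0.21 to 0.41. Stat2, a partner of Irf9, was at 9.19, 8.80, 10.0 and 11.5 CPM with IL-1β and at 8.13, 6.76, 7.49 and 7.69 CPM with vehicle. All IL-1β samples were above all vehicle samples, with a log2 fold change of 0.40 (SE 0.106, edgeR adjusted p = 0.003152). Irf1, an activator of many interferon-inducible promoters, was at 10.2, 9.52, 11.2 and 10.8 CPM with IL-1β and at 7.61, 9.47, 9.27 and 7.82 CPM with vehicle. Here the lowest IL-1β sample was only just above the highest vehicle sample. The log2 fold change of Irf1 was 0.29 (SE 0.102, edgeR adjusted p = 0.02179). The call of Irf1 was lost without IL-1β replicate 3 (adjusted p = 0.08469), without vehicle replicate 1 (adjusted p = 0.08696) or without vehicle replicate 4 (adjusted p = 0.0653).

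The remaining factors made no call. Irf2, an antagonist of Irf1, and Irf3, which activates type I interferon genes after viral sensing, had the tightest intervals. The log2 fold change of Irf2 was 0.01 (95% interval -0.12 to 0.14), and that of Irf3 was 0.04 (95% interval -0.06 to 0.15). Irf9, the DNA-binding partner of Stat2, was lower in all 4 IL-1β samples than in any vehicle sample, at 9.41 ± 0.846 against 10.9 ± 0.511 CPM (SD, n = 4). Its log2 fold change of -0.21 missed the threshold (edgeR adjusted p = 0.07893). Irf7, the amplifier of the type I response, was at 1.97 ± 0.365 against 1.56 ± 0.165 CPM, and Irf5, a driver of inflammatory cytokine genes, was at 2.26 ± 0.518 against 1.72 ± 0.325 CPM. The adjusted p was 0.2457 for Irf7 and 0.1227 for Irf5, and without IL-1β replicate 1 that of Irf5 was 0.04103. Of the exon bases of Irf5, 14.1% lie in Tnpo3, and whether the counting used strand is not given in the sources used here. Irf8, a factor of myeloid and B cells, had 1 read with IL-1β and 7 with vehicle in sum.

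The antiviral effectors and the genes of the ISG15 system, 21 in all, were mostly low. Only 9 were tested, of which 4 rose, 2 fell and 3 made no call, with a median log2 fold change of 0.11, beside 20.4% and 19.8% of all genes tested that rose and fell. Bst2, also named tetherin, which holds budding virus at the cell surface, was at 12.5, 13.0, 15.3 and 14.4 CPM with IL-1β and at 8.77, 8.78, 7.20 and 8.48 CPM with vehicle. Its groups were well apart, with a log2 fold change of 0.73 (SE 0.0964, edgeR adjusted p = 3.359e-07). Ifitm3, a membrane protein that blocks viral entry, was at 28.6, 27.0, 29.3 and 30.6 CPM with IL-1β and at 16.6, 21.0, 21.0 and 19.8 CPM with vehicle. All IL-1β samples of Ifitm3 were higher than all vehicle samples, with a log2 fold change of 0.56 (SE 0.0687, edgeR adjusted p = 9.323e-08).

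Its relative Ifitm2 was the most abundant of the 26 genes per length, at 107.6 CPM per kilobase with vehicle and 134.9 with IL-1β. Ifitm2 was at 81.1, 89.6, 91.7 and 91.1 CPM with IL-1β and at 63.7, 73.3, 73.2 and 71.7 CPM with vehicle. Its log2 fold change was 0.33 (SE 0.046, edgeR adjusted p = 8.174e-07). The groups did not overlap. The count of Ifitm2 is uncertain in part, since 40.9% of its exon bases lie in Gm45717 on the same strand. Trim25, the ubiquitin ligase that modifies the RNA sensor RIG-I, rose slightly from 35.4 ± 1.04 to 39.3 ± 2.54 CPM (SD, n = 4; log2 fold change 0.16, edgeR adjusted p = 0.01175). Without IL-1β replicate 3, the highest sample, Trim25 had a log2 fold change of 0.11 and was not called (adjusted p = 0.0934).

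Ifi44 and Isg20 fell. Ifi44, an interferon-induced cytoplasmic protein, was at 1.35, 1.59, 0.95 and 1.42 CPM with IL-1β and at 3.52, 3.99, 3.78 and 3.68 CPM with vehicle. The vehicle samples were all above the IL-1β samples, with means that differed 2.82-fold, from 15 to 22 reads per IL-1β library and 53 to 69 per vehicle library. The log2 fold change was -1.51 (SE 0.188, 95% interval -1.89 to -1.12, edgeR adjusted p = 1.273e-07). Ifi44 passed the filter through its vehicle samples. Isg20, an exonuclease that degrades viral RNA, was at 10.4, 13.3, 13.1 and 15 CPM with IL-1β and at 18.0, 19.4, 17.7 and 19.2 CPM with vehicle. Again the groups did not overlap, with a log2 fold change of -0.51 (SE 0.0858, edgeR adjusted p = 1.607e-05). Neither Ifi44 nor Isg20 held an exact match to the response element in its windows. With 1 letter free, Ifi44 held 4 matches and Isg20 held 1, and 16 of 17 antiviral effectors with a window held at least 1.

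The effectors tested with no call were Ifit2, Ifi35 and Eif2ak2. Ifit2, which binds viral RNA, was at 2.65 ± 0.462 against 3.37 ± 0.435 CPM (SD, n = 4; log2 fold change -0.33, edgeR adjusted p = 0.131). Ifi35, with 16.8% of its exon bases in the gene model Gm11626, was at 5.70 ± 0.566 against 5.30 ± 0.694 CPM. Eif2ak2, the kinase PKR that halts translation on double-stranded RNA, had a log2 fold change of -0.04 with a 95% interval of -0.21 to 0.13.

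**Figure D4:**
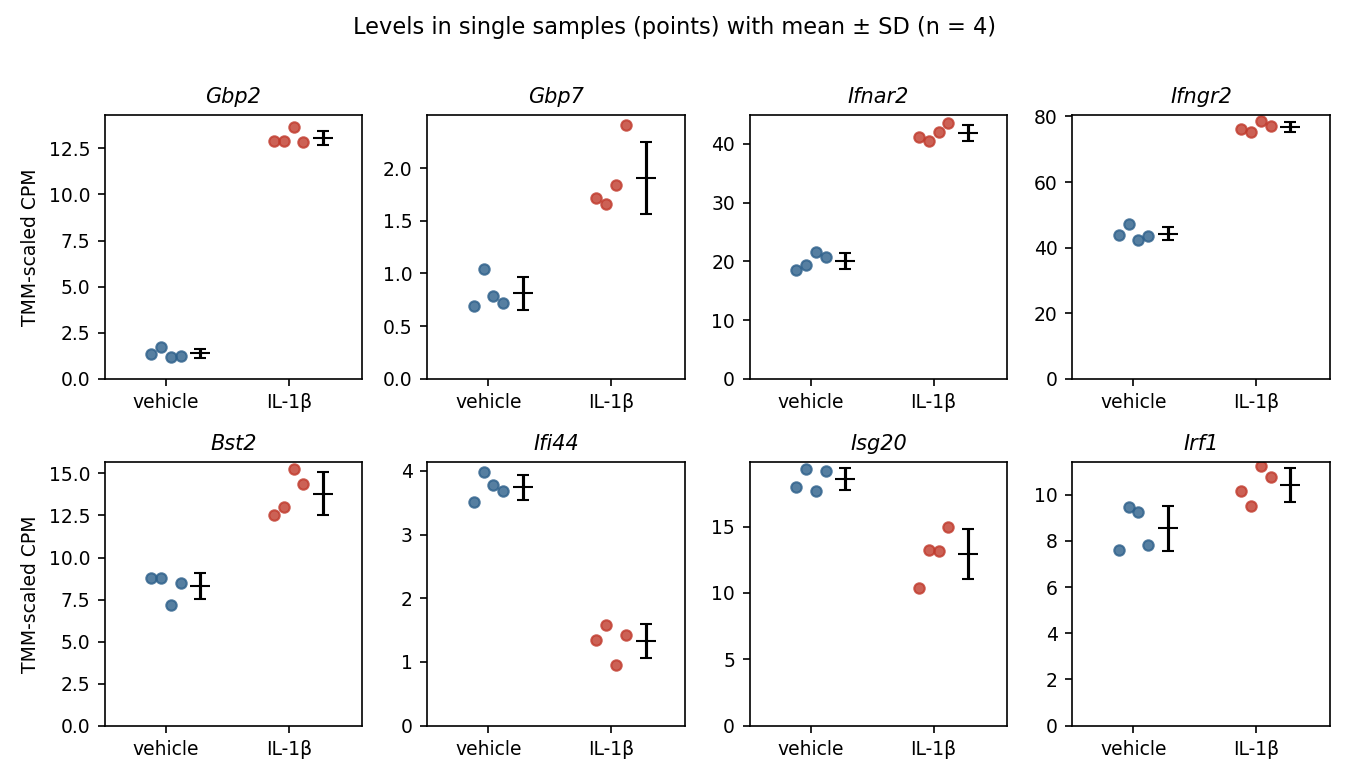
Level of 8 genes in single samples in TMM-scaled CPM on linear axes that start at 0, with mean ± SD (n = 4) beside the points. The groups are far apart for Gbp2, Ifnar2, Ifngr2, Bst2 and Ifi44, and nearly touch for Irf1, where the lowest IL-1β sample is at 9.52 CPM and the highest vehicle sample at 9.47 CPM.

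Many of the best known interferon-inducible genes were at or near the limit of detection in both groups. Mx1, a GTPase that blocks influenza virus, had no read in any library, which allows up to 0.173 to 0.27 CPM per library. Rsad2 (viperin), which makes a chain terminator of viral RNA, had 0 reads in all IL-1β libraries and 3 in the vehicle libraries together. Isg15, the ubiquitin-like modifier, had 1, 2, 2 and 7 reads with IL-1β and 0, 2, 3 and 3 with vehicle. The ratio of summed reads for Isg15 was 1.71, with a 95% counting interval of 0.644 to 4.83. No difference in these genes was detectable at this depth.

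Ifit1 had 3 reads with IL-1β and 2 with vehicle in sum, and Mx2 and the oligoadenylate synthetase-like gene Oasl1 had the same sums. Oas1a, which makes the activator of RNase L, had 1 read in each group, and Oasl2 had 2 reads with IL-1β only. Ifit3 had 9 reads with IL-1β and 21 with vehicle, with a counting interval for the ratio of 0.197 to 1.11. The counts of Ifit3 and Oas1a are uncertain, since 51.2% and 57.6% of their 50-base stretches also occur in Ifit3b and in Oas1g or Oas1b. In all, 8 of the 17 untested genes had at most 3 reads in every library, Mx1 and Iigp1 among them at 0.

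Usp18, Ifitm1 and Parp14 were detected in every library, below the filter. Usp18, the protease that removes ISG15 and damps signalling at Ifnar2, had 12, 16, 7 and 10 reads with IL-1β and 6, 8, 7 and 5 with vehicle. Its groups overlapped in CPM, and in the fit without the filter it was not called (log2 fold change 0.98, edgeR adjusted p = 0.06884). Ifitm1 had 29 reads with IL-1β and 24 with vehicle, with 1 to 16 reads per IL-1β library. Parp14, a mono-ADP-ribosyltransferase, had 32 and 40 reads.

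**Figure D5:**
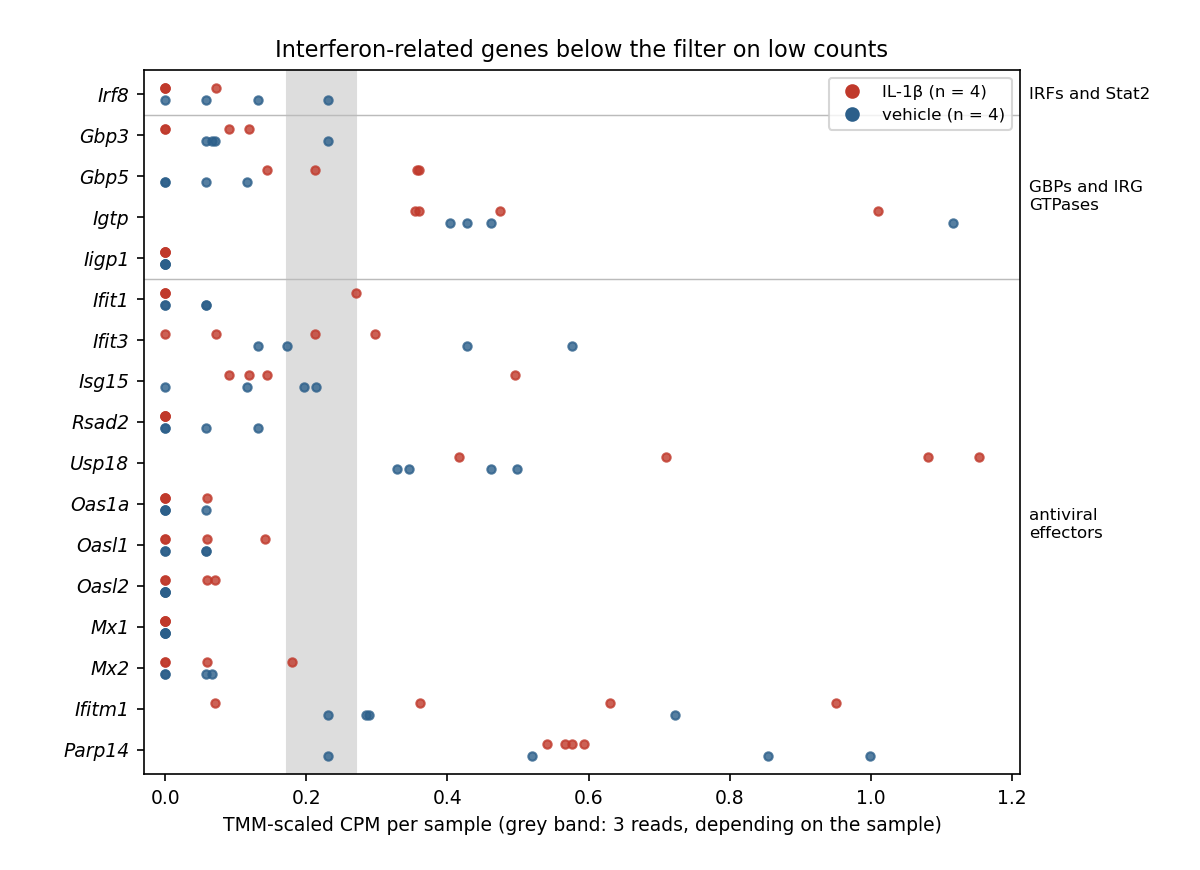
Level of the 17 genes below the filter in every sample, in TMM-scaled CPM, with 4 IL-1β samples in red, 4 vehicle samples in blue and a grey band for 3 reads (0.173 to 0.27 CPM). Most points lie at or left of the band, and Gbp5 is the only one of these genes whose groups do not overlap.

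Of the 2 cytosolic RNA sensors, 1 rose and 1 made no call, beside 20.4% of all genes tested that rose. Ifih1 (MDA5), which binds long double-stranded RNA, was at 3.69, 3.82, 2.02 and 3.12 CPM with IL-1β and at 1.73, 2.14, 2.28 and 2.23 CPM with vehicle. IL-1β replicate 3 lay within the vehicle range. The log2 fold change of Ifih1 was 0.57 (SE 0.198, edgeR adjusted p = 0.02208), and the exact two-sided permutation test gave p = 0.114. The edgeR call of Ifih1 was lost without IL-1β replicate 1 (adjusted p = 0.06681), IL-1β replicate 2 (adjusted p = 0.09514) or vehicle replicate 1 (adjusted p = 0.07745). Ddx58 (RIG-I), which binds short RNA ends, had a log2 fold change of -0.09 (95% interval -0.26 to 0.08) and made no call.

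The 4 highest levels per length were those of Ifitm2, Ifitm3, Ifngr1 and Ifngr2. In vehicle samples Ifitm2 was above 97.8% of the genes tested in CPM per kilobase, Ifitm3 (28.9) above 90.0% and Ifngr1 (13.9) above 78.3%. Ifngr2, at 11.8 CPM per kilobase, Ifnar1, at 7.86, and Ifnar2, at 6.05, followed, with Isg20, Irf3 and Bst2 between Ifngr2 and Ifnar1 and Trim25 (6.15) between Ifnar1 and Ifnar2. With IL-1β, Ifngr2 rose to 20.4 and Ifnar2 to 12.6 CPM per kilobase, above Ifngr1 (15.7) and Ifnar1 (10.9) respectively. Gbp7 was the lowest of the 26 genes per length in vehicle samples, at 0.144 CPM per kilobase.

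The wider interferon pathway was read from a list of 111 other genes, of which 110 were found by symbol and 53 were tested. Of the 53, 22 rose and 7 fell, against 20.4% and 19.8% of all genes tested. The 14 interferon genes, among them Ifnb1, Ifng and 8 interferon alpha genes, were all below the filter. No read was found in any library for 10 of the interferon genes, and Ifnl3 had the most, with 3 reads in all, while interferon alpha genes are near copies of each other whose reads the counting could split. In all, 4 of the 53 passed the 2-fold threshold upward, against 2.86% of all genes tested, and these were Ikbke, Il10rb, Ifi204 and Samd9l. Ikbke, a kinase that phosphorylates Irf3 and Irf7, was at 34.6, 34.3, 29.9 and 32.5 CPM with IL-1β and at 7.21, 5.95, 6.20 and 7.29 CPM with vehicle. The groups of Ikbke were far apart (log2 fold change 2.29, SE 0.0803, edgeR adjusted p = 1.093e-19). Ifi204, a DNA-binding protein of the interferon-inducible p200 family, rose by 1.15 on the log2 scale (edgeR adjusted p = 7.233e-09). Samd9l, a restriction factor of poxviruses, rose by 1.08 (edgeR adjusted p = 1.385e-08). Ifitm10, an IFITM relative, was the only one of the 53 to fall past 2-fold, against 2.35% of all genes tested. The log2 fold change of Ifitm10 was -1.76 (edgeR adjusted p = 3.452e-16).

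Among 12 other receptor chains, Janus kinases, STATs and IRFs, 9 were tested, 5 rose and 2 fell. The counts of this list and of those that follow stand beside 20.4% of all genes tested that rose and 19.8% that fell. The kinase Jak1 rose from a range of 116.8 to 118.1 CPM to one of 143.9 to 151.2 CPM (log2 fold change 0.32, edgeR adjusted p = 5.717e-10). Stat6, which acts in IL-4 signalling, rose by a similar amount (log2 fold change 0.33, edgeR adjusted p = 1.276e-08), and Jak2 by 0.16 (edgeR adjusted p = 0.002889). Tyk2 was called higher, and Stat5a and Stat5b lower, with log2 fold changes of 0.17, -0.13 and -0.12. With DESeq2 none of the last 3 was called. Leaving out 1 library ended the call of Tyk2 for IL-1β replicates 2 and 3 and vehicle replicates 2, 3 and 4 (edgeR adjusted p up to 0.1738). It ended that of Stat5a for IL-1β replicates 1 and 2 and vehicle replicates 2, 3 and 4 (up to 0.1305), and that of Stat5b for IL-1β replicates 1, 2 and 3 and vehicle replicates 2 and 4 (up to 0.1552). Of 7 tested negative regulators of the pathway, 3 rose and 2 fell. Of 29 other antiviral effectors tested, 9 rose and 3 fell, and of 6 other sensors and adaptors, 4 rose and 0 fell.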

How the data were processed

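RNA was measured in 4 IL-1β and 4 vehicle samples. The authors trimmed reads with cutadapt, aligned them with STAR (2.4.2a in the submitters' processing notes, while the methods give another version) to mm10 and counted them per gene with featureCounts. The deposited values are whole-number counts per symbol, with a deposited column of exon lengths (unit: other), and whether they precede the batch correction named in the methods is not stated. The labelled treatment gave the groups. The raw counts, with TMM factors as offsets, were tested with edgeR 4.0.16 (quasi-likelihood, R 4.3.3) over the 14404 genes above 1 CPM in at least 4 samples, at an adjusted p under 0.05, with a log2 fold change beyond 1 for DEGs. The fit was tested on simulated data. Levels between genes are CPM per kilobase of the deposited length. Permutation tests used log2(CPM + 1). Positions and overlaps came from GENCODE vM21 (GRCm38), where all 43 symbols matched 1 gene and 42 had the listed length (Iigp1 did not). All 43 genes are named. Of the wider pathway, the text names the interferon genes, the kinases and STATs, and the DEGs, except 1 item that is not reported here. Members and lists were chosen with earlier results of these data known. Alternatives were DESeq2 1.42.0 as the test, DESeq2 size factors, total counts, other filters, the replicate block, 1 factor of unwanted variation, glmTreat, leaving out each sample, and a response element with 1 letter free.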

Additional observations from a re-analysis of the deposited data

Results flagged for a closer look

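In 4 of 52 groups of 4 samples, a sample stood apart from the other 3 by Dixon's test at the 95% level, where chance gives about 2.6 such groups. Irf9 was low in IL-1β replicate 4, at 8.16 CPM against 9.66 to 9.92 CPM in the other 3. Gbp2 was high in IL-1β replicate 3, at 13.7 CPM against 12.8 to 12.9 CPM. Ifitm2 was low in vehicle replicate 1, at 63.7 CPM against 71.7 to 73.3 CPM. Trim25 was high in IL-1β replicate 3, at 43.1 CPM against 37.7 to 38.3 CPM.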

How the results depend on the processing

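The counts of genes among the 26 tested (13 higher, 2 lower, 3 DEGs higher, 1 DEG lower) were the same with DESeq2, DESeq2 size factors, total counts and 1 factor of unwanted variation. With CPM above 1 required in all 8 samples, 1 gene was called lower and 0 DEGs were lower, because Ifi44 was no longer tested, and 12 were called higher with 2 DEGs higher. Without a filter, 14 were called higher and 4 were DEGs higher. Tested by glmTreat against a 2-fold change, 1 gene was higher and 1 lower. With 1 letter of the response element free, 29 of the 38 windows held it, against 38.9% of all genes. The replicate block gave 13 higher, 2 lower, 3 DEGs higher and 1 DEG lower. Samples with the same number did not deviate together (correlations of -0.07 to 0.04), so the numbers were not taken to pair samples. Leaving out 1 sample gave 11 to 13 called higher, 2 lower, 3 DEGs higher and 1 lower. The sign changed for genes with no call only, with log2 fold changes of -0.0491 to 0.0606 for Irf2, -0.00174 to 0.23 for Irgm1 and -0.19 to 0.0315 for Irgm2. With DESeq2 the calls of Tyk2, Stat5a and Stat5b were lost (adjusted p = 0.09303, 0.09105 and 0.1179). Depth limits the 17 genes below the filter, where differences of a few reads cannot be resolved.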
